A study of Mus musculus with 2 samples.

Results

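The genes described here are 10 components of the Notch pathway, measured in the mouse mammary gland: the receptors Notch1, Notch2, Notch3 and Notch4, the ligands Dll1, Dll4, Jag1 and Jag2, and the target genes Hey1 and Heyl. They were taken by symbol from gene tables of 21113 rows, and all 10 had a row. Mammary gland RNA of C57BL/6 mice aged 6 postnatal weeks was sequenced in 2 libraries. One was from a gland homozygous for the ILN allele, written ILN/ILN, in which an IRES-LacZ-Neo cassette interrupts the Mir212/132 microRNA locus, and 1 was from a wild-type gland. The insertion was not restricted to any cell type by the labels, and the number of animals behind each sample was not stated there. With 1 library per genotype no difference below has a replicate check, and no test was made.

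Notch receptors are single-pass membrane proteins that are activated by ligands of the Delta-like and Jagged families on a neighbouring cell. Ligand binding exposes the receptor to an ADAM protease and then to gamma-secretase, and the released intracellular part joins the DNA-binding protein RBPJ and Mastermind-like coactivators to switch on genes such as the Hes and Hey repressors. In the mammary gland the pathway is known for its part in luminal cell fate, and in vessels for the choice between tip and stalk cells, arterial identity and the maintenance of pericytes and smooth muscle.

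Fragments assigned to genes numbered 42953129 in the ILN/ILN and 46133338 in the wild-type library. Levels are the FPKM-like value that was deposited, which allows for a gene's length and for library size. A fold is the ratio of a gene's fragments, each divided by its library total, followed by its exact 95% interval. These intervals cover no more than counting error. They can be too narrow even for that, because fragments sequenced without molecular identifiers can be copies of 1 molecule. The limit that a count of 0 allows was 3 fragments. The labelled tissue was checked with marker genes of its cell types. Of 12 luminal epithelial markers, 4 (Areg, Cldn7, Elf5 and Krt8) were at 0 in the ILN/ILN library and none was at 0 in the wild-type library, and their summed value was 0.993 in the ILN/ILN and 46.9 in the wild-type library. The luminal keratin gene Krt8 had 0 fragments in the ILN/ILN and 742 in the wild-type library. With 3 fragments in place of 0 it was 230-fold lower, and the exact interval of its fold reached up to 0.00535. The summed value of 9 B cell markers was 35.6 in the ILN/ILN and 193 in the wild-type library, and that of 9 T cell markers was 26.6 in the ILN/ILN and 77.5 in the wild-type library. In whole tissue, fewer cells of a type and less RNA per cell cannot be told apart.

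The microRNAs of the interrupted locus pair with messenger RNAs through their seed, bases 2 to 8. The mature strands miR-132-3p and miR-212-3p share 1 seed, shown in capitals in the RefSeq sequences (GRCm38.p6, chr11:75173723-75173744 and chr11:75173443-75173464, plus strand) because it decides which members hold a matching site.
miR-132-3p: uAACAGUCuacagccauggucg
miR-212-3p: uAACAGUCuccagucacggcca

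Sites for this seed, GACTGTT or ACTGTTA, were looked for in each gene's longest 3′ untranslated region as annotated in GRCm38, on the transcribed strand. Of the 10 members, 4 held a site: Notch1, Notch2, Notch4 and Dll4. A gene passed the minimum when its value reached 1 in either library, and of 11325 searched genes that passed, 20.9% held a site. Each of the 4 sites was GACTGTT, in capitals below, and none was followed by the A that would extend it.
Notch1 (chr2:26458704-26458733, minus strand): aacactgcctgGACTGTTctgtgcatccct
Notch2 (chr3:98150075-98150104, plus strand): gaatgtacgagGACTGTTtggaaggacacg
Notch4 (chr17:34582760-34582789, plus strand): gggatggagggGACTGTTccctgggggtcc
Dll4 (chr2:119334948-119334977, plus strand): atggagctcttGACTGTTctccagagagtg

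Length differs between these regions, and the counts above were not adjusted for it. The regions searched were 1628 bases long in Notch1, 2917 in Notch2, 3334 in Notch4 and 1329 in Dll4. Of the members without a site, Heyl had 3245 bases, Jag1 1568, Hey1 1137, Jag2 1070, Notch3 1000 and Dll1 676. In Notch4 the site lay in the 3′ region of 1 of 4 annotated coding transcripts, and which of them these glands used was not measured. A sequence match does not show that a microRNA acts there. The 4 genes with a site did not share a direction: in the ILN/ILN library Notch1, Notch4 and Dll4 were higher and Notch2 was lower, with values given below. Over all searched genes the median log2 ratio of (value + 1), ILN/ILN over wild type, was 0.05 with a site and 0.0029 without.

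Notch pathway genes were expressed at low to middling levels in both libraries. Notch2 was highest at 10.3 in the ILN/ILN and 13.0 in the wild-type library, and Notch1 followed at 9.20 in the ILN/ILN and 7.94 in the wild-type library. Among all genes passing the minimum, Notch2 lay at percentile 54.8 in the ILN/ILN and 60.9 in the wild-type library. Dll1 was lowest at 0.768 in the ILN/ILN and 0.776 in the wild-type library, and it stayed under the minimum of 1 in both. The other 9 members passed the minimum in both libraries.

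**Figure D1:**
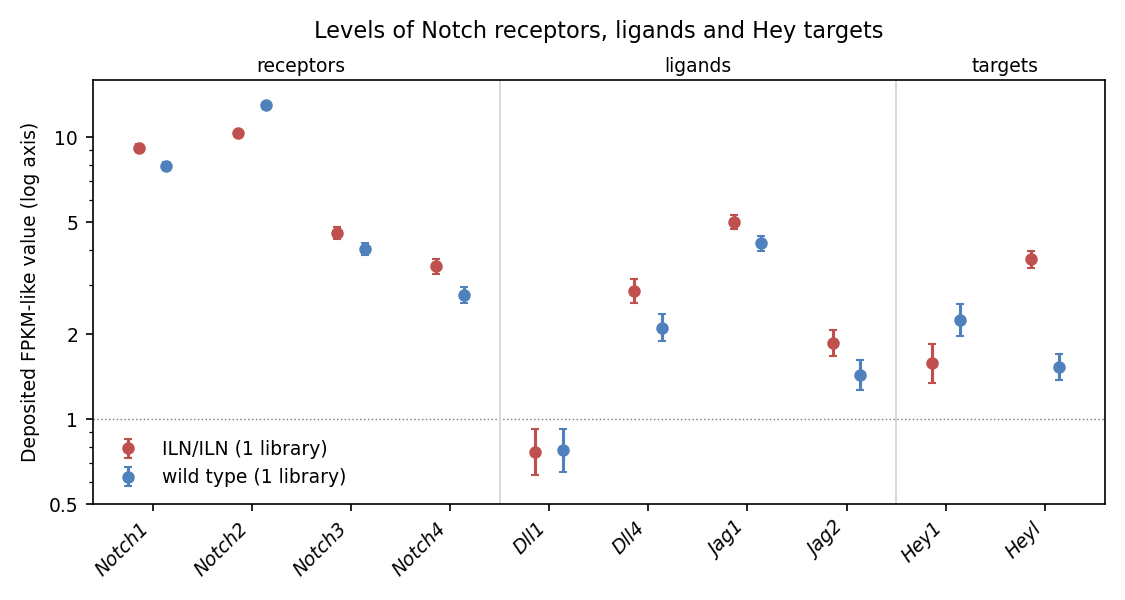
Deposited FPKM-like value (log axis) of each of the 10 genes in the ILN/ILN library (red, left) and the wild-type library (blue, right), 1 library each, with exact 95% Poisson intervals for counting error. Heyl stands at 3.69 in the ILN/ILN and 1.53 in the wild-type library, with intervals far apart, whereas the intervals of Dll1 overlap almost fully.

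In the ILN/ILN library the order was Notch2, Notch1, Jag1, Notch3, Heyl, Notch4, Dll4, Jag2, Hey1 and Dll1. In the wild-type library it was Notch2, Notch1, Jag1, Notch3, Notch4, Hey1, Dll4, Heyl, Jag2 and Dll1. Thus the first 4 genes and the last were in the same place in both, and Heyl moved up while Hey1 moved down. Some neighbours did not differ beyond counting error. In the ILN/ILN library these were Heyl and Notch4 (ratio of levels 1.06, 0.963 to 1.17) and Jag2 and Hey1 (1.18, 0.973 to 1.44). In the wild-type library they were Jag1 and Notch3 (1.04, 0.965 to 1.13), Hey1 and Dll4 (1.06, 0.897 to 1.26) and Heyl and Jag2 (1.07, 0.906 to 1.25).

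Between the libraries most members were slightly higher in ILN/ILN and 1 stood apart. Heyl was higher, and it was the single member past 1.5-fold on the (value + 1) scale among the 9 that passed the minimum. Over 11556 genes passing the minimum, 1.9% were higher by 1.5-fold or more and 5.39% were lower by as much. No member was 1.5-fold lower, and none was past 2-fold either way on this scale, where 0.407% of genes were higher and 1.72% lower. From fragments, with no pseudocount, Heyl alone among the 9 was past 1.5-fold and 2-fold, and it was higher. Of 11528 genes, 2.85% were higher by 1.5-fold and 0.763% by 2-fold, and 7.59% and 3.36% were lower. The median log2 ratio of (value + 1) over the 9 members was 0.21, and over all genes it was 0.02. Of the 9, 7 had a ratio above 0 and 2 below, and over all genes 52.3% were above 0.

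**Figure D2:**
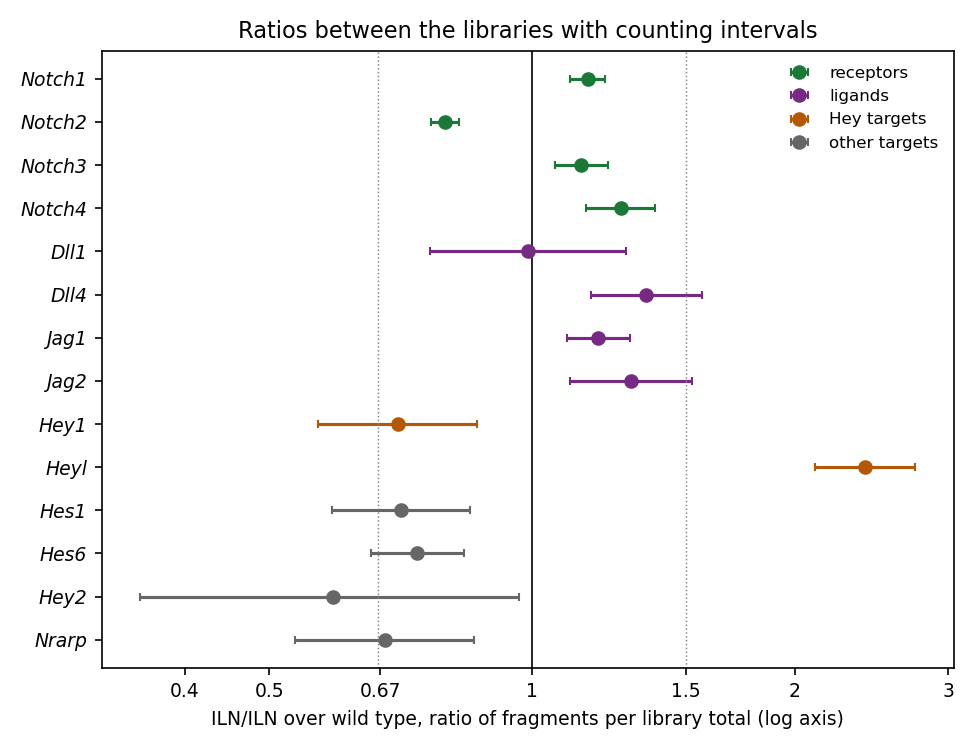
Ratio of fragments per library total, ILN/ILN over wild type (log axis), with exact 95% counting intervals, for the 10 members and 4 further target genes of the pathway (Hes1, Hes6, Hey2 and Nrarp). Dotted lines mark 1.5-fold each way. Heyl lies at 2.41 and Hey1 at 0.702, and the 4 further targets drawn lie between 0.592 and 0.739. These 4 are a selection from 15 further targets, of which 8 passed the minimum, 2 with a log2 ratio above 0 and 6 below. Over all genes passing the minimum, 52.3% were above 0. The 2 further targets above 0, Ccnd1 at 1.17 and Cdkn1a at 1.18, are not drawn, nor is Hes2, under the minimum at 2.45 (0.956 to 7.06).

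Among the receptors, 3 were higher in the ILN/ILN library and Notch2 was lower. Notch1 (gene identifier 18128), the receptor known in endothelium, lymphocytes and many epithelia, had 3916 fragments in the ILN/ILN and 3632 in the wild-type library, a fold of 1.16 (1.11 to 1.21). Notch2 (18129), a broadly expressed receptor needed for marginal zone B cells, had 4872 fragments in the ILN/ILN and 6582 in the wild-type library. That was a fold of 0.795 (0.766 to 0.825), or 1.26-fold lower (1.21 to 1.31). Notch2 thus ran against the other receptors.

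Notch3 (18131), known from pericytes and vascular smooth muscle and from luminal progenitors, was at 4.59 in the ILN/ILN and 4.03 in the wild-type library. Its 1632 ILN/ILN and 1539 wild-type fragments gave a fold of 1.14 (1.06 to 1.22). Notch4 (18132), known mainly from endothelium, was at 3.48 in the ILN/ILN and 2.76 in the wild-type library. Its fold was 1.26 (1.15 to 1.38), from 1028 ILN/ILN and 874 wild-type fragments. Counting intervals of all 4 receptors excluded 1, but each difference was under 1.5-fold, and how much 2 wild-type glands would differ was not measured.

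The summed receptor level hardly differed, at 27.6 in the ILN/ILN and 27.7 in the wild-type library, while its make-up did. Notch2 made up 37.4% of it in the ILN/ILN library (36.6 to 38.3) and 46.9% in the wild-type library (46.0 to 47.8). Notch1 made up 33.3% (32.5 to 34.2) in the ILN/ILN and 28.6% (27.9 to 29.4) in the wild-type library. Notch3 stood at 16.6% in the ILN/ILN and 14.5% in the wild-type library, and Notch4 at 12.6% in the ILN/ILN and 9.95% in the wild-type library. Ratios between receptors within a library do not depend on how the libraries are scaled. The Notch1 to Notch2 ratio was 0.890 in the ILN/ILN and 0.611 in the wild-type library, 1.46 times as high (1.37 to 1.54). All 3 pairs with Notch2 had an interval that excluded 1, and the 3 pairs among Notch1, Notch3 and Notch4 did not.

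**Figure D3:**
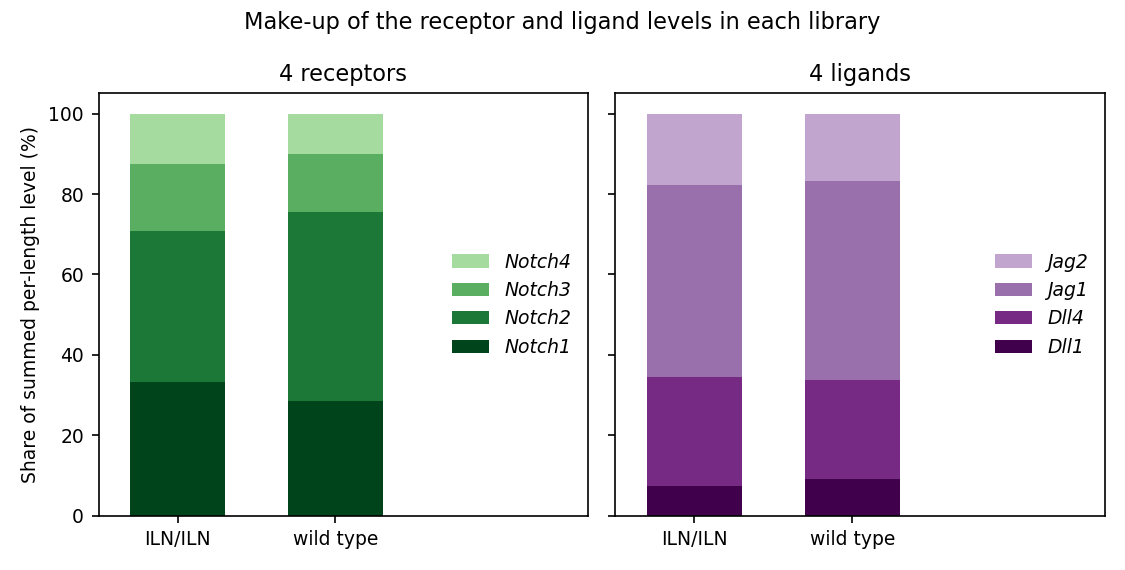
Share of each receptor (left) and ligand (right) in the summed per-length level of its 4 genes, in percent, with the ILN/ILN library left of the wild-type library. Notch2 makes up 37.4% of the receptor level in the ILN/ILN and 46.9% in the wild-type library, while the ligand shares differ by less.

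Beside the lower Notch2 stood lower B cell markers, all 8 that passed the minimum being lower by 2-fold or more. Cd79a, part of the B cell receptor complex, was at 9.89 in the ILN/ILN and 80.6 in the wild-type library. Among 9 T cell markers all were at least 1.5-fold lower, with Cd3e at 2.75 in the ILN/ILN and 8.68 in the wild-type library. Macrophage markers summed to 1289 in the ILN/ILN and 1975 in the wild-type library, and 4 of 8 were at least 1.5-fold lower. None of these immune markers was at 0 in either library. Relative to Cd79a the Notch2 level was higher in ILN/ILN by a factor of 6.48 (5.89 to 7.14), and relative to Cd3e by 2.51 (2.11 to 3.01). Relative to the endothelial gene Cdh5 it differed by a factor of 0.565 (0.537 to 0.594). Cd79a had the lowest log2 ratio of (value + 1) among the measured B cell markers, -2.91 beside a median of -2.03. Cdh5 had the highest among the endothelial markers, 0.48 beside a median of 0.25. These factors thus depend on the gene taken, and no macrophage gene was compared in this way. The part of immune or other cells in the Notch2 difference was not tested.

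Among the ligands, 3 were higher in the ILN/ILN library and 1 was level. Jag1 (16449), a ligand of endothelium and smooth muscle, was the most abundant at 5.02 in the ILN/ILN and 4.21 in the wild-type library. It had 1184 fragments in the ILN/ILN and 1067 in the wild-type library, a fold of 1.19 (1.10 to 1.30). Dll4 (54485), the Delta-like ligand of tip cells and arteries, was at 2.86 in the ILN/ILN and 2.11 in the wild-type library. Its 418 ILN/ILN and 332 wild-type fragments gave a fold of 1.35 (1.17 to 1.57), the highest among receptors and ligands. Jag2 (16450) was at 1.87 in the ILN/ILN and 1.44 in the wild-type library, with 336 ILN/ILN and 278 wild-type fragments and a fold of 1.30 (1.10 to 1.53).

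Dll1 (13388), a ligand known from basal mammary cells and from the stroma that supports marginal zone B cells, had 117 fragments in the ILN/ILN and 127 in the wild-type library. Its fold was 0.989 (0.763 to 1.28), and a difference within that interval was not detectable at this depth. Of 7 basal epithelial markers, the keratin genes Krt5, Krt14 and Krt17 were at 0 in the ILN/ILN library and above 0 in the wild-type library. Krt5 had 0 fragments in the ILN/ILN and 78 in the wild-type library, at least 24.2-fold lower. Under the minimum too, Cdh3 had 1 fragment in the ILN/ILN and 28 in the wild-type library, a fold of 0.038 (0.00094 to 0.232). Lgr6, also under it, had 5 in the ILN/ILN and 16 in the wild-type library, a fold of 0.336 (0.0962 to 0.959). The 2 basal markers that passed the minimum had fragments in both libraries. Trp63, a transcription factor of basal cells, had 109 in the ILN/ILN and 147 in the wild-type library, a fold of 0.796 (0.616 to 1.03). The oxytocin receptor gene Oxtr had 713 in the ILN/ILN and 611 in the wild-type library, a fold of 1.25. The part of basal cells in the Dll1 level was not tested.

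The summed ligand level was 10.5 in the ILN/ILN and 8.54 in the wild-type library. Jag1 took 47.7% (45.5 to 49.9) of it in the ILN/ILN and 49.3% (46.9 to 51.7) in the wild-type library. Dll4 took 27.2% (25.1 to 29.4) in the ILN/ILN and 24.8% (22.6 to 27.1) in the wild-type library. Of the 6 pairs of ligands, 1 had a ratio whose interval excluded 1, that of Dll1 to Dll4, at 0.269 in the ILN/ILN and 0.367 in the wild-type library. Jag1, Jag2 and Dll4 were thus in similar proportion in both.

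Dll4 and Notch4 were set beside genes of the endothelium. Of 15 endothelial markers 12 had a log2 ratio of (value + 1) above 0, with a range of -0.11 to 0.48, a median of 0.25 and none past 1.5-fold. They summed to 270.3 in the ILN/ILN and 229 in the wild-type library, and none was at 0 in either. Cdh5, or VE-cadherin, was at 44.5 in the ILN/ILN and 31.6 in the wild-type library, whereas Pecam1, another junction protein, was at 38.6 in the ILN/ILN and 40.3 in the wild-type library. Of 8 measured arterial markers 6 were above 0, with a median of 0.13, and the gap junction gene Gja4 was at 7.72 in the ILN/ILN and 6.33 in the wild-type library.

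Relative to Cdh5 the Dll4 level differed by a factor of 0.961 (0.827 to 1.12) and the Notch4 level by 0.898 (0.814 to 0.990), ILN/ILN over wild type. Relative to Esam, an adhesion gene of endothelial junctions, the factors were 0.991 (0.844 to 1.16) for Dll4 and 0.926 (0.828 to 1.03) for Notch4. Cdh5 and Esam had the highest log2 ratios of (value + 1) among the 15 endothelial markers, 0.48 and 0.43 beside a median of 0.25. Relative to Pecam1, 1 of the 3 endothelial markers below 0, the factors were 1.41 (1.21 to 1.64) for Dll4 and 1.32 (1.20 to 1.46) for Notch4. The part of the endothelial genes' higher level in these differences was not tested.

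The Hey targets went opposite ways. Heyl (56198), a repressor of the Hairy family that is a known Notch3 target in pericytes and smooth muscle, was at 3.69 in the ILN/ILN and 1.53 in the wild-type library. It had 744 fragments in the ILN/ILN and 332 in the wild-type library, a fold of 2.41 (2.11 to 2.75). Of 11528 genes with fragments, 99.5% had a lower ratio. Hey1 (15213), a related repressor known in arterial endothelium, was at 1.58 in the ILN/ILN and 2.25 in the wild-type library. Its 153 ILN/ILN and 234 wild-type fragments gave a fold of 0.702 (0.569 to 0.865), or 1.42-fold lower (1.16 to 1.76), and 9.16% of genes had a lower ratio. Relative to the endothelial genes the Hey1 level differed by a factor of 0.499 (0.403 to 0.616) against Cdh5 and 0.733 (0.592 to 0.906) against Pecam1. Heyl over Hey1 was 2.34 in the ILN/ILN and 0.681 in the wild-type library, 3.42 times as high (2.67 to 4.40) whatever the scaling.

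**Figure D4:**
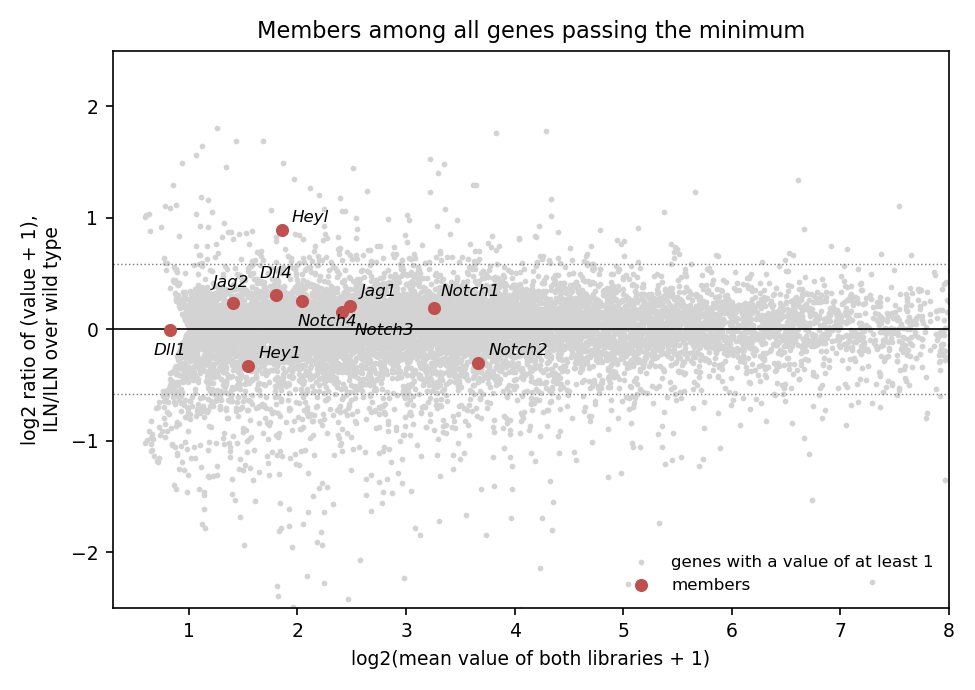
Log2 ratio of (value + 1), ILN/ILN over wild type, against log2 of the mean value of both libraries plus 1, for all genes passing the minimum (grey) and the 10 members (red, Dll1 included). Dotted lines mark 1.5-fold, 394 of 11556 genes lie outside the axes, and Heyl is the single member beyond a dotted line.

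Genes of mural cells, the pericytes and smooth muscle around vessels, went both ways around a level median beside the higher Heyl. Of 11 mural markers 6 were above 0 and 5 below, with a median log2 ratio of 0.0093 and a range of -0.37 to 0.52. None was past 1.5-fold and none was at 0. The markers summed to 284 in the ILN/ILN and 263 in the wild-type library. Values of Myh11 and Abcc9 did not come from their fragments in both libraries. Their fragments gave 0.969 (0.918 to 1.02) for Myh11 and 1.24 (1.18 to 1.31) for Abcc9. Pdgfrb, a growth factor receptor of pericytes, was at 15.9 in the ILN/ILN and 15.5 in the wild-type library, and Rgs5, a pericyte regulator of G protein signalling, at 16.4 in the ILN/ILN and 16.6 in the wild-type library. Acta2, smooth muscle actin, was at 43.4 in the ILN/ILN and 56.5 in the wild-type library, whereas the adhesion gene Mcam was at 105.7 in the ILN/ILN and 73.2 in the wild-type library.

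Relative to these genes the Heyl level was higher in ILN/ILN by a factor of 2.36 (2.06 to 2.72) against Pdgfrb, 2.44 (2.10 to 2.84) against Rgs5, 3.13 (2.73 to 3.61) against Acta2 and 1.67 (1.46 to 1.91) against Mcam. Against Cdh5 the factor was 1.71 (1.49 to 1.96), and against the receptor Notch3 it was 2.11 (1.82 to 2.46). The Notch3 level itself differed from Pdgfrb by a factor of 1.12 (1.03 to 1.21). The factor thus varied with the gene taken for comparison. Acta2 and Mcam stood at the lower and the upper end of the mural markers' range. Whether the Acta2 fragments came from mural or other cells was not measured. The part of mural or endothelial cells in the Heyl difference was not tested.

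From 15 further genes named as targets, 8 passed the minimum, 2 with a ratio above 0 and 6 below, as Hey1 was. Their median log2 ratio was -0.35. Over all genes passing the minimum, 52.3% were above 0. The 6 below include Myc, whose interval included 1. Hes1, the most widely used Notch target, was at 3.15 in the ILN/ILN and 4.45 in the wild-type library, a fold of 0.708 (0.589 to 0.849). Nrarp, a target that feeds back to inhibit the pathway, was at 1.06 in the ILN/ILN and 1.56 in the wild-type library, a fold of 0.678 (0.535 to 0.857). Hey2, the third Hey gene, stayed under the minimum, with 27 fragments in the ILN/ILN and 49 in the wild-type library, a fold of 0.592 (0.356 to 0.966). Hes6, a Hes family member not known as a strong Notch target, had a fold of 0.739 (0.653 to 0.835). The 2 targets above 0 were the cell cycle genes Ccnd1, with a fold of 1.17 (1.10 to 1.25), and Cdkn1a, with 1.18 (1.10 to 1.26), and the growth regulator gene Myc had 0.964 (0.864 to 1.07). Hes2, under the minimum with 16 fragments in the ILN/ILN and 7 in the wild-type library, had a fold of 2.45 (0.956 to 7.06).

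The Hey1 to Hes1 ratio was 0.502 in the ILN/ILN and 0.506 in the wild-type library, differing by a factor of 0.992 (0.750 to 1.31). Gata3 and Dtx1 were the 2 genes of that list past 1.5-fold, both lower. Gata3, a regulator of luminal cells and T cells, was at 0.257 in the ILN/ILN and 1.32 in the wild-type library. Dtx1, a Deltex protein of lymphocytes, was at 0.687 in the ILN/ILN and 1.82 in the wild-type library, a fold of 0.378 (0.302 to 0.470). Both are known from cells whose markers were lower in the ILN/ILN library, and the part of those cells was not tested. Hes5 and Hes7 were at 0 in the ILN/ILN library with 3 and 2 wild-type fragments, too few for a comparison.

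The rest of the machinery differed little. Of 64 other pathway genes with a row, the further targets included, 49 passed the minimum. None was at least 1.5-fold higher and 3 were at least 1.5-fold lower, Gata3, Dtx1 and Aak1, close to the 5.39% of all genes. The median log2 ratio was -0.07. Aak1, a kinase of endocytosis, was at 4.27 in the ILN/ILN and 7.49 in the wild-type library, but these values did not come from its fragments in both libraries, and its fragments gave 0.929 (0.871 to 0.990). From fragments 4 genes were lower by 1.5-fold, namely Gata3, Dtx1, Dtx3 and Lfng, and of all genes 7.59% were.

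Among genes that cut the receptors, 9 of 10 passed the minimum and none was past 1.5-fold. Adam10, the protease of the first cut, was at 5.98 in the ILN/ILN and 5.36 in the wild-type library, and Adam17, a related protease, at 6.06 in the ILN/ILN and 6.75 in the wild-type library. Psen2, a catalytic subunit of gamma-secretase, was at 53.4 in the ILN/ILN and 51.3 in the wild-type library. Aph1a, a further subunit, was at 78.4 in the ILN/ILN and 98.0 in the wild-type library, again not from fragments in both, and from fragments its fold was 1.04 (0.990 to 1.09).

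Of the Fringe enzymes, which add sugars that set the receptors' choice of ligand, Lfng was lower and Mfng slightly higher. Lfng was at 8.91 in the ILN/ILN and 13.9 in the wild-type library, a fold of 0.643 (0.591 to 0.699), just inside 1.5-fold on the (value + 1) scale. Mfng, the most abundant, was at 86.9 in the ILN/ILN and 78.2 in the wild-type library, a fold of 1.11 (1.07 to 1.15). Rfng, at 21.0 in the ILN/ILN and 22.2 in the wild-type library, and Poglut1, which glucosylates the receptors, at 8.45 in the ILN/ILN and 9.08 in the wild-type library, were nearly level.

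In the nucleus, Rbpj, the DNA-binding partner of the cleaved receptor, was at 8.05 in the ILN/ILN and 8.50 in the wild-type library, a fold of 0.946 (0.889 to 1.01). Kat2b, a histone acetyltransferase recruited as a coactivator, was at 9.27 in the ILN/ILN and 6.26 in the wild-type library, a fold of 1.48 (1.37 to 1.60). Of the 13 measured genes of this list, 5 were above 0 and 8 below. The coactivator Crebbp was a little lower, with a fold of 0.821 (0.752 to 0.896), and the deacetylase Hdac2 a little higher at 1.16 (1.05 to 1.28).

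Among ubiquitin ligases of the pathway, 8 of 11 measured genes had a ratio below 0. Dtx3 was at 9.42 in the ILN/ILN and 14.3 in the wild-type library, Dtx4 at 2.20 in the ILN/ILN and 3.08 in the wild-type library, and Neurl3 at 6.10 in the ILN/ILN and 7.54 in the wild-type library. Numbl, an inhibitor related to Numb, was at 8.63 in the ILN/ILN and 10.8 in the wild-type library. Numb itself was at 12.7 in the ILN/ILN and 10.7 in the wild-type library, but its fragments gave 1.02 (0.928 to 1.13). The remaining ligand Dll3 and the ligand-like genes Dlk1, Dlk2 and Dner all stayed under the minimum, with 31 fragments or fewer in each library.

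**Figure D5:**
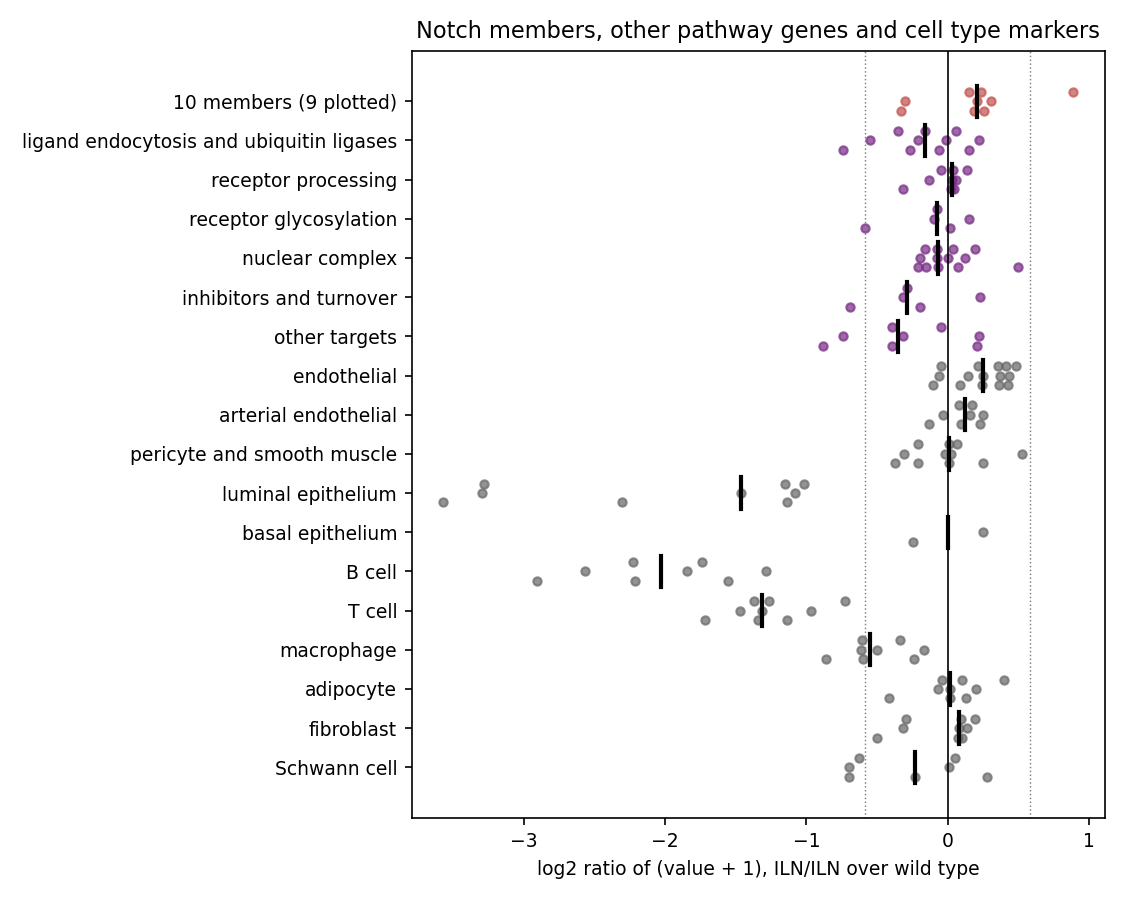
Log2 ratio of (value + 1), ILN/ILN over wild type, for each gene passing the minimum (points) among the Notch members (red), other pathway lists (purple) and cell type markers (grey), with the median of each list as a black bar and 1.5-fold as dotted lines. The members centre on 0.21 and run from -0.33 to 0.89. The endothelial markers centre on 0.25, the arterial markers on 0.13 and the other targets on -0.35. B cell and luminal markers lie far lower.

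Adipocyte and fibroblast markers, from the main cells of the fat pad, were nearly level, with medians of 0.02 over 9 adipocyte and 0.08 over 9 fibroblast genes. The adipocyte markers summed to 75680 in the ILN/ILN and 84920 in the wild-type library. Cfd, the secreted protease adipsin, was lower at 25466 in the ILN/ILN against 33953 in the wild-type library, whereas the lipid droplet gene Plin1 was at 556 in the ILN/ILN and 421 in the wild-type library. The fibroblast gene Pi16 was at 147 in the ILN/ILN and 207 in the wild-type library. Schwann cell markers had a median of -0.23 over 7 genes, with 3 at least 1.5-fold lower.

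Because RBPJ is known to bind TGGGAA and TGAGAA, both were searched on both strands from 250 bases before to 50 after the annotated start, in 9 RefSeq promoters of 8 members (GRCm38.p6). Hey1 and Heyl were not among them. None held TGGGAA, which 25.6% of 32851 promoters did, and 1 held TGAGAA, which 20.2% did. That one belonged to Jag1 (chr2:137116471-137116770, minus strand), the most abundant ligand gene, where the match, in capitals, began 242 bases before the start. The bases G and C made up 55.7% to 86% of the 9 member promoters, each above the median of 52.7% over all promoters. The shares above were not adjusted for this. A match is not evidence of binding, and other sites may lie outside this window.
Jag1 promoter: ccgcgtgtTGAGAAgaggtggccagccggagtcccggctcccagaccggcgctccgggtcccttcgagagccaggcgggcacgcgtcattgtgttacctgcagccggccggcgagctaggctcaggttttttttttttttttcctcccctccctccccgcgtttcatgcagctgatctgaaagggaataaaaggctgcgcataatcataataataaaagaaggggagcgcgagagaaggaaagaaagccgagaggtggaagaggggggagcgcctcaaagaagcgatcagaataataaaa

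In all 10 members the deposited value came from the gene's own fragments in both libraries and rested on the 1 isoform the deposited tables list for it, so the isoform-derived values of other genes did not enter. Exons of antisense transcripts overlap Notch1 by 1068 and 414 bases, Notch3 by 488, Dll1 by 867 and Dll4 by 214 in the GRCm38 annotation, and a transcript on the same strand overlaps Notch2 by 541. Strand was marked in the libraries, but its use in counting was not stated, so a part of these genes' fragments could belong to the overlapping transcripts.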

How the data were processed

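Polyadenylated RNA was sequenced from 1 ILN/ILN and 1 wild-type mammary gland sample, with the second strand marked by dUTP and 2 lanes of an Illumina GAIIx per sample, per the labels' protocols. Tools listed per the submitters' processing notes were TopHat 1.4.1, Bowtie 0.12.3 and bedtools, and the build was mm9. How genes were counted, with which annotation and whether by strand, was not stated.

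The authors deposited an FPKM-like value per gene, its log2(value + 1), and a signal per kilobase as an original, a derived and a final estimate. The original signal times the deposited length was whole, within 0.01, in 100% of genes above 0, and this product is called fragments. Whether it counts reads or pairs is not given.

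Ratios of (value + 1) used a pseudocount of 1, which understates differences of low genes. Genes passed the minimum when 1 of their values reached 1. Folds used fragments over the library totals of 42953129 (ILN/ILN) and 46133338 (wild type), with exact conditional (Clopper-Pearson) 95% intervals. Shares and ratios of ratios used the matching exact intervals on fragments, with the mix of the other genes held fixed for shares. The folds and their intervals were run on simulated Poisson counts without copied fragments, where such intervals hold by design, so this checked the code alone. Shares, ratios of ratios and sequence searches were not checked in this way. Python 3.11.15 was used with scipy 1.17.1. All members were named, with up to 4 measured genes of largest absolute log2 ratio per pathway list, up to 3 per marker list, and a few fixed genes (Rbpj, Hes1, Hey2, Nrarp, Cdh5, Pecam1, Pdgfrb, Rgs5, Krt8, Krt5, Cd79a, Cd3e). Genes named as at 0, under the minimum, for a value not from their fragments or completing a family or list were chosen after their values were seen. Members and lists were chosen with earlier results of these data known. Gene Mir212 and gene Mir132 levels were not analysed here. The files use no coordinates. All coordinates printed are of GRCm38, from RefSeq and GENCODE. Values of some single genes that this rule allows are not reported.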

Additional observations from a re-analysis of the deposited data

How the results depend on the processing

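With a pseudocount of 0.1 in place of 1, Heyl passed 2-fold, so that 1 member did, and 5 other pathway genes were at least 1.5-fold lower. Over all genes, 354 were then 1.5-fold higher, and 100 higher and 376 lower by 2-fold. With a pseudocount of 5, 0 members and 0 other pathway genes passed 1.5-fold, and over all genes 67 were higher and 225 lower by 1.5-fold and 9 higher and 50 lower by 2-fold. With a minimum of 5, which Heyl did not reach, 0 members were 1.5-fold higher and 1 other pathway gene was lower, and over all genes 140 were higher and 354 lower by 1.5-fold and 26 higher and 115 lower by 2-fold. In the main setting the counts over all genes were 220 higher and 623 lower by 1.5-fold and 47 higher and 199 lower by 2-fold. The log2 ratio of Heyl ranged from 0.41 to 1.21 over 6 alternatives and that of Hey1 from -0.48 to -0.14. Of the alternatives, only scaling by the sums of fragments or by the median ratio could change a member's sign. Under both scalings the 9 members that passed the minimum kept their sign. Dll1 passed only without a minimum, where its ratio equals that of the main setting, so its sign was not checked. Scaling by the sums of fragments or by the median ratio, dropping the minimum, and the original estimate alone moved no count by over 1.5 times. No paired analysis was possible because each genotype had 1 library. Among the members depth limits Dll1 most, and none of the intervals covers differences between animals or dissections.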
